A study of Homo sapiens with 6 samples.

Results

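A set of 38 genes of the lysosome was listed by name: hydrolases with their activators, proteins of the lysosomal membrane, subunits of the proton pump and the transcription factor TFEB. A gene was measured when a probe set carried its symbol and no other. Where a gene had several such probe sets, the brightest on average was used. In all, 37 of the 38 listed genes were measured, among 19775 genes of the array. GLB1, the lysosomal beta-galactosidase, is on a probe set shared with TMPPE and was left out. The 37 genes had 97 probe sets, of which 13 genes had 1 and 24 had several.

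The cells were MCF-10A, an immortalized, non-tumorigenic line of human breast epithelium, grown in a mammary epithelial medium. The study compared 3 control arrays (C1, C2 and C3) with 3 arrays of cells that received a lentivirus carrying MBD2 (M1, M2 and M3), and asked what added MBD2, a protein that binds methylated DNA, does to gene expression. The virus was packaged in HEK293 cells, and the promoter that drives MBD2 in it is not named in the sources used here. The labels call the arrays technical replicates and the control cells uninfected, while the study's methods name biological replicates and an empty virus. The treatment label of the MBD2 arrays reads MBD2 transfection, while the methods describe infection with the lentivirus. No source says that the arrays came from separate cultures, so a p-value here speaks only to the scatter of these arrays, which may be technical. Values are log2 RMA expression values, and a difference is MBD2 minus control unless stated otherwise.

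Lysosomes are acidic organelles in which proteins, glycans, lipids and glycosaminoglycans are taken apart by hydrolases that work at low pH. The V-ATPase pumps protons into the lumen, and heavily glycosylated membrane proteins such as LAMP1 and LAMP2 line the membrane. Many lysosomal genes carry a CLEAR element in the promoter, a palindrome built around an E-box that is bound by TFEB and its relatives, and loss of single hydrolases or activators causes storage diseases.

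Promoters of the genes that the results below turn on are shown first. RefSeq promoter windows, each running from 250 bases before to 50 bases after a start site (GRCh38.p14), were found for 25 of the 38 listed genes. GM2A lies at the plus strand of chromosome 5, with its window at chr5:151252935-151253234, and is shown because it was the 1 gene of the group that passed the test. Capitals mark CG, the pair of letters at which DNA is methylated and which MBD2 binds once methylated. The LAMP1 window (chr13:113296989-113297288, plus strand) and the MCOLN1 window (chr19:7522374-7522673, plus strand) are shown for the E-box CACGTG, in capitals.
GM2A: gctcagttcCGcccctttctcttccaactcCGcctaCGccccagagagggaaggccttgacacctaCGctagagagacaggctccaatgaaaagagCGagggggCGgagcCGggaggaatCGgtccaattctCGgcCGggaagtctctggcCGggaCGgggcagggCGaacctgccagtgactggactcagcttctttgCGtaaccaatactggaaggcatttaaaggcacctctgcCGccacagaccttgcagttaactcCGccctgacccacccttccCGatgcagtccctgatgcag
LAMP1: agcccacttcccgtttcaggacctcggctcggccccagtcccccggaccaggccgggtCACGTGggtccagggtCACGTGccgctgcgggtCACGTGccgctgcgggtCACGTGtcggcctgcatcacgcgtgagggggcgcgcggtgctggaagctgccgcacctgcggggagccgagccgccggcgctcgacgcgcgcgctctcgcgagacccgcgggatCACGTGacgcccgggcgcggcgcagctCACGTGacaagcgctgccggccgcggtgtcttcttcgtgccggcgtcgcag
MCOLN1: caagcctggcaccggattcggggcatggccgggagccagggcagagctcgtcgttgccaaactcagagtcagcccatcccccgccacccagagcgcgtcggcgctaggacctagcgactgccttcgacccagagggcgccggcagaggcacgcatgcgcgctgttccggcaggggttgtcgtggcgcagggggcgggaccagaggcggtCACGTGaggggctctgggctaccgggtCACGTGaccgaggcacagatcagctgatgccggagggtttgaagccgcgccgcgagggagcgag

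The GM2A window held 17 CG and was 60.3% G and C, against medians of 14 and 58.7% over all windows of the table, and it held no CACGTG. LAMP1 had 6 copies of CACGTG, the largest number among the counted windows of the group, and MCOLN1 had 2. Being palindromes, CACGTG and the longer TCACGTGA, which contains it, read alike on both strands. CACGTG stood in a window of 8 of the 25 genes (32%), against 8.77% of all genes of the table. TCACGTGA, the core of the CLEAR element, stood in 5 of the 25 (20%), against 1.18% of all genes, and these were LAMP1, MCOLN1, GAA, GALNS and ATP6V0D1. A match describes the letters of the window and is not a measured binding site, and DNA methylation was not among the data used here.

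MBD2 itself read 8.92, 9.03 and 9.68 on C1, C2 and C3 and 12.17, 11.72 and 12.50 on M1, M2 and M3, a rise of 2.92 (SE 0.28, adjusted p = 0.0119). Of 12 epithelial markers listed, 7 were measured (KRT5, KRT14, KRT18, CDH1, EPCAM, LAMB3 and ITGB4), and all 7 were above 8 on every array. They were not stable, and EPCAM fell by 3.12 (adjusted p = 0.00138). KRT5, KRT14 and CDH1 were also lower on every MBD2 array than on any control array. CDH1 ran from 13.03 to 13.67 on the control arrays and from 11.08 to 12.73 on the MBD2 arrays. KRT18 was higher on every MBD2 array (9.46 to 11.49, against 8.80 to 9.28). The summed level of the 7 ran from 15.35 to 15.92 on the control arrays and from 14.96 to 15.13 on the MBD2 arrays. Of 4 endothelial genes, CDH5 and KDR were under 4 on every array, VWF ran from 5.10 to 5.48 and PECAM1 from 5.84 to 6.14, and their summed level was 6.90 to 7.09. The arrays within a group were not equally alike. Only 5 genes differed by over 2-fold between C1 and C2 and 95 between M2 and M3, but 1572 differed between C1 and C3 and 2877 between M1 and M2. On M2 and M3 the 18 hybridization control probe sets averaged 9.94 and 10.01, against 10.96 to 11.33 on the other arrays, and 20 mitosis genes had a median 1.68 and 1.49 above the control mean, against −1.16 on C3 and −0.53 on M1. Each result below is therefore given array by array.

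GM2A is the activator protein that lifts GM2 ganglioside out of the membrane for hexosaminidase A. It was the only lysosomal gene of the 37 called lower in limma, at an adjusted p under 0.05 and at least 1.5-fold. Its values were 12.63, 12.67 and 12.69 on the control arrays and 11.50, 11.46 and 11.13 on the MBD2 arrays. The groups lay far apart, with every MBD2 array more than 1 log2 unit below every control array. The means were 12.66 ± 0.03 and 11.36 ± 0.20 (SD, n = 3 each), and the difference of −1.30 (SE 0.13, 95% interval −1.62 to −0.98), 2.46-fold lower, had an adjusted p of 0.0131 in limma. All 7 of its probe sets read lower on each MBD2 array than on any control array, with differences of −0.44 to −1.92. Against the control mean, GM2A was at −1.16 on M1 and −1.37 on the mean of M2 and M3. The call depended on which array was left out. The adjusted p was 0.0765 without C1, 0.0876 without C2, 0.0536 without M2 and 0.0552 without M3, but 0.0275 without C3 and 0.00508 without M1, with differences of −1.18 to −1.37 in these 6 fits. With C1 and C2 averaged, and M2 and M3 averaged, it was 0.331.

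**Figure D1:**
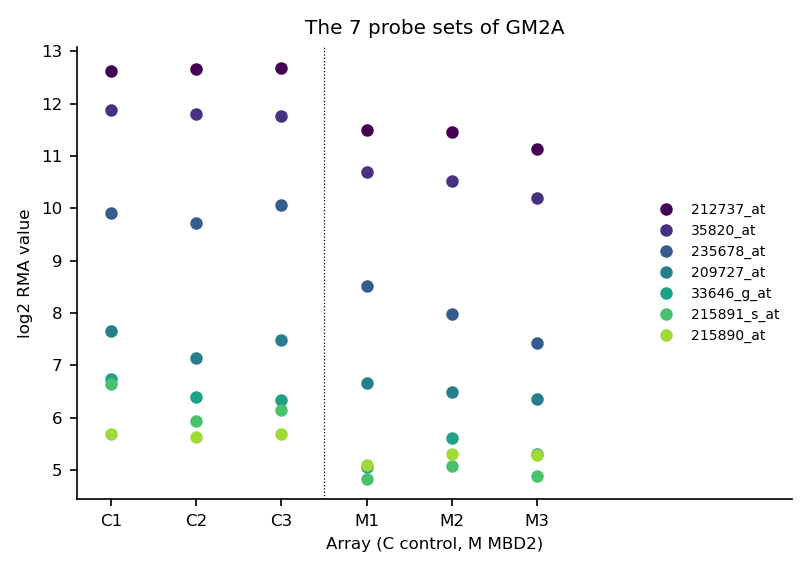
Log2 RMA value (vertical axis) of the 7 GM2A probe sets, 1 colour each, on the 3 control arrays (C1 to C3) and the 3 MBD2 arrays (M1 to M3). In every probe set the 3 MBD2 points lie below the 3 control points, with differences between the group means of −0.44 to −1.92.

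With limma at an adjusted p under 0.05 and at least 1.5-fold, 1 of 37 lysosomal genes (2.7%) was called lower and 0 higher, against 1.5% and 1.25% of all genes. At an unadjusted p under 0.05 the numbers were 6 lower (16.2%) and 2 higher (5.41%), against 9.59% and 8.69% of all genes. Without limma's moderation of the variances 0 of the 37 were called in either direction, where 10 of all 19775 genes were called lower and 3 higher. The groups did not overlap in 6 genes with lower MBD2 values (LAMP2, GM2A, MAN2B1, FUCA1, LGMN and ATP6V1B2, 16.2% of the 37, against 14.6% of all genes) and in 2 with higher values (IDS and ATP6V1C1, 5.41%, against 10.4%). The median difference was −0.26 over the 37 genes, with 32 of them below 0, and −0.02 over all genes. By the methods' own rule, which asks each MBD2 array for a ratio over 1.5 or under 0.5 to the control mean, GM2A was low (1.81% of all genes) and ARSB was high (3.47%).

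**Figure D2:**
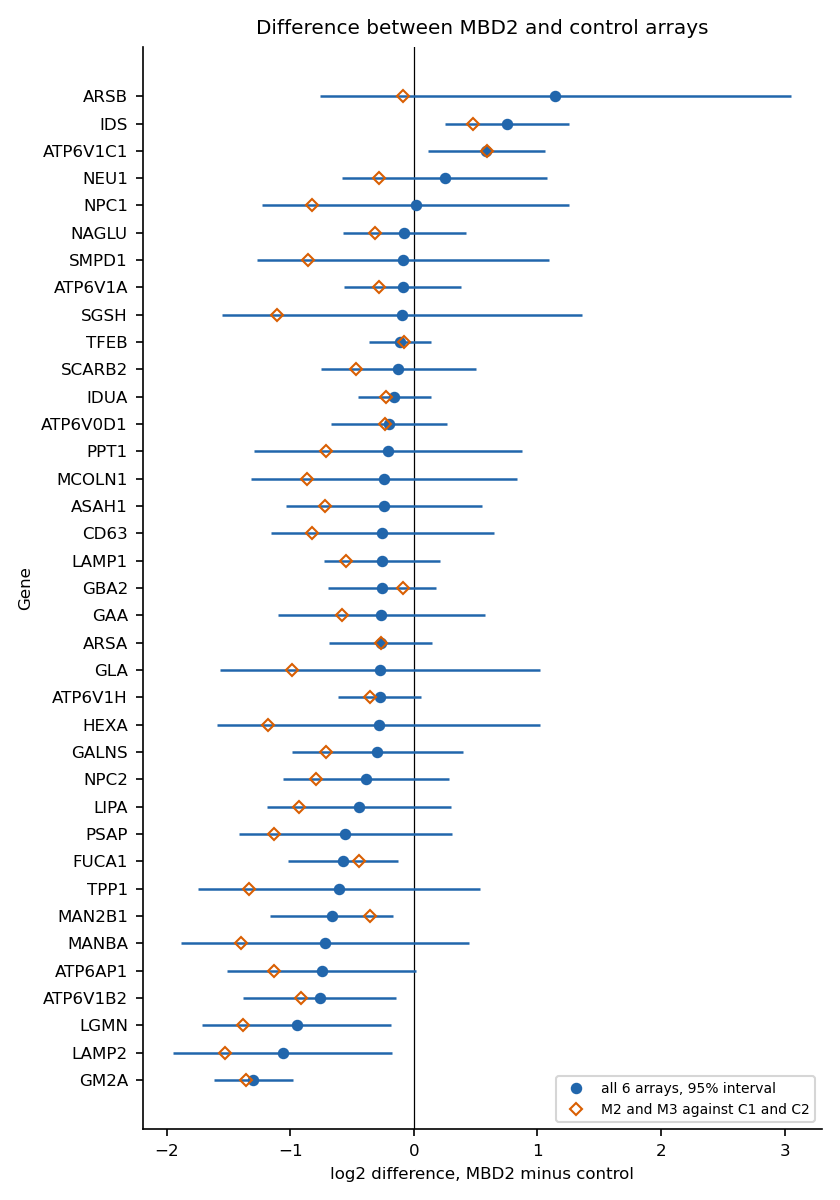
Difference of mean log2 values, MBD2 minus control, for each of the 37 genes (filled points, all 6 arrays, with the 95% interval from limma) and the difference between the mean of M2 and M3 and that of C1 and C2 (open diamonds, no interval). GM2A at −1.30 has the lowest filled point and a short interval, and most diamonds lie left of their filled point.

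Most of the group divided the MBD2 arrays instead. M2 and M3 both lay below the 4 other arrays in 22 of the 37 genes (59.5%), against 16.4% of all genes. M1 lay above all 3 control arrays in 18 of the 37 (48.6%), against 23.4% of all genes, and below all of them in 7 (18.9%), against 38.1%. Relative to the control mean, the median over the 37 genes was 0.10 on C1, 0.09 on C2, −0.22 on C3, 0.13 on M1, −0.53 on M2 and −0.43 on M3. M2 and M3 were thus low and M1 was at the level of C1 and C2, which the means of 3 do not show. In the 6101 genes with a mean of at least 8, the medians of M2 and M3 were 0.10 and 0.09.

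Set against the mean of C1 and C2, a comparison chosen after the data were seen, M2 had 21 of the 37 genes at least 1.5-fold lower and 1 higher, where 10.8% of all genes were lower and 17.1% higher. M3 had 20 lower and 1 higher (11.3% and 16.9% of all genes). M1 had 4 lower and 5 higher (9.97% and 8.48%). C3, a control, had 12 lower and 0 higher (8.65% and 10.5%), so low readings of lysosomal genes also occurred on a control array. The low hybridization controls and the high mitosis genes of M2 and M3 move with their low values. So does the difference between 3′ and 5′ control probe sets, a sign of RNA quality, which was 1.49 and 1.52 for GAPDH on M2 and M3, against 1.83 to 2.52 elsewhere, and 3.45 and 3.44 for ACTB, against 3.62 to 4.57. On C3 the hybridization controls lay between those of M1 and C1, while the mitosis genes were at their lowest. The part of any of these measures in the values was not tested. In bulk RNA, fewer cells of a kind and less RNA per cell cannot be told apart.

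**Figure D3:**
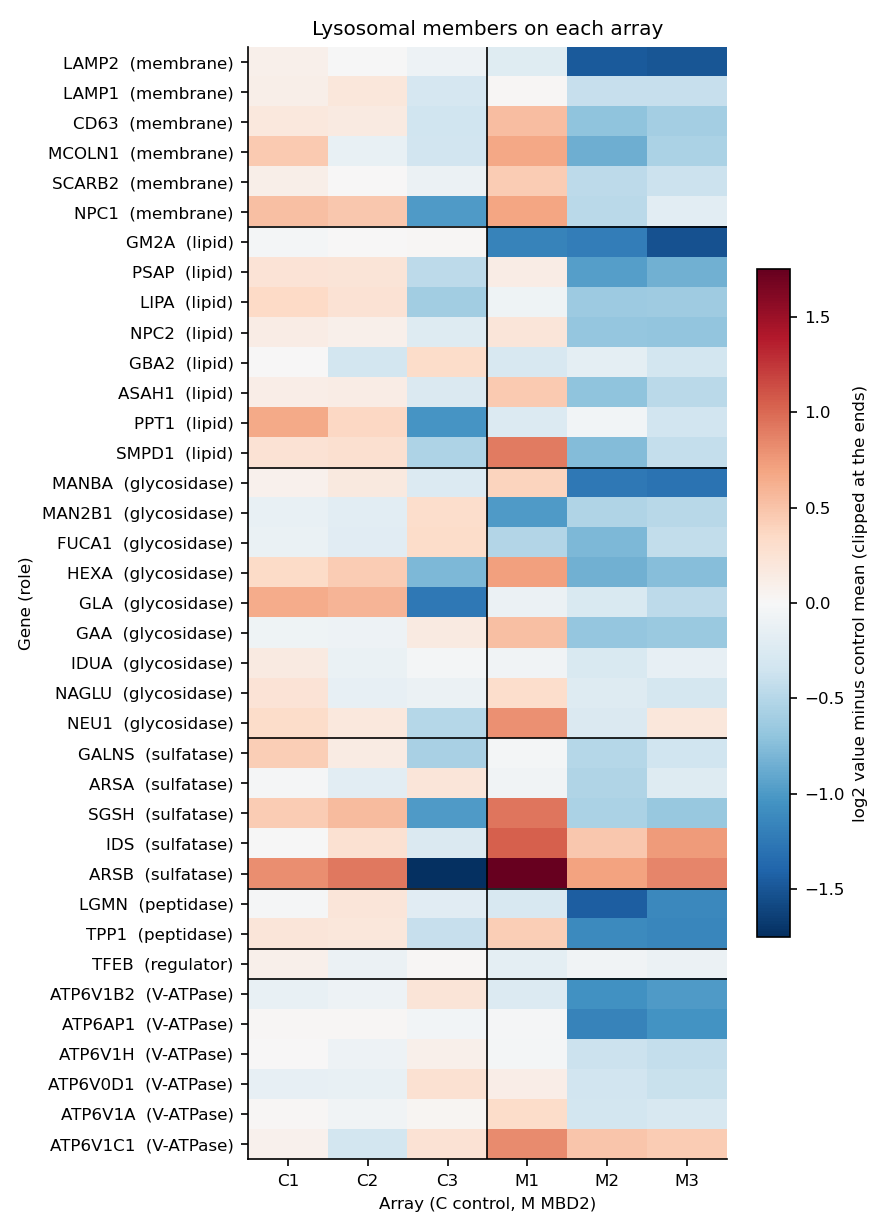
Log2 value minus the mean of the 3 control arrays for the 37 genes (rows, grouped by role) on each array (columns), blue below and red above the control mean, with values past the ends of the scale given the end colour. GM2A is blue in all 3 MBD2 columns, most other rows are blue in both M2 and M3, and NPC1, PPT1, GLA, SGSH and ARSB have their deepest blue in C3.

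When C3 and M1 were both left out, limma called 20 of the 37 genes lower (54.1%, against 10.7% of all genes) and 1 higher (2.7%, against 16.7%). The 20 were LAMP2, CD63, NPC1, MCOLN1, NPC2, LIPA, ASAH1, SMPD1, PSAP, GM2A, PPT1, GLA, HEXA, MANBA, GALNS, SGSH, TPP1, LGMN, ATP6V1B2 and ATP6AP1, and the 1 higher was ATP6V1C1. This fit rests on 2 pairs of nearly identical arrays, so its spread may be technical only. It was chosen with earlier results of these arrays known, and it is given as a description of where the 2 pairs differ.

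Among the membrane proteins, LAMP2, which lines the lysosome and in 1 splice form imports proteins for chaperone-mediated autophagy, read 13.05, 12.94 and 12.87 on the control arrays and 12.74, 11.48 and 11.46 on the MBD2 arrays. M1 lay just under the controls and M2 and M3 more than 1 unit below it. The difference of −1.06 (SE 0.36) did not pass, with an adjusted p of 0.202, and was −1.49 without M1. All 4 LAMP2 probe sets had a difference below 0, from −0.18 to −1.06. Only in the one used did all MBD2 arrays lie below all controls. In the next brightest M1 (12.69) lay above C3 (12.57), and in the dimmer LAMP2 probe sets M1 was the highest array. LAMP1, its abundant companion, read 14.57, 14.67 and 14.17 against 14.49, 14.07 and 14.07, and differed by −0.26 (adjusted p = 0.529). C3 lay nearly as low as M2 and M3. All 4 LAMP1 probe sets were below 0 as well, down to −0.99 in a dimmer one. In that probe set M1 (10.229) and C3 (10.2302) all but met.

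MCOLN1, the lysosomal calcium channel and a known TFEB target, read 8.31, 7.72 and 7.52 on the control arrays and 8.53, 6.996 and 7.30 on the MBD2 arrays. The highest and the lowest value both came from MBD2 arrays, and the difference of −0.24 had an SE of 0.44. NPC1, which exports cholesterol from the lysosome, read 10.75, 10.68 and 9.22 against 10.91, 9.74 and 10.03. Here C3 was the lowest array, and the mean difference was 0.01 (SE 0.51). SCARB2, the receptor that carries glucocerebrosidase to the lysosome, and the tetraspanin CD63 differed by −0.13 and −0.26, and both were highest on M1 and lowest on M2. The 4 SCARB2 probe sets ran from −1.04 to −0.13. In the one at −1.04, M1 (9.03) lay below C1 (9.34) and C2 (9.22).

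**Figure D4:**
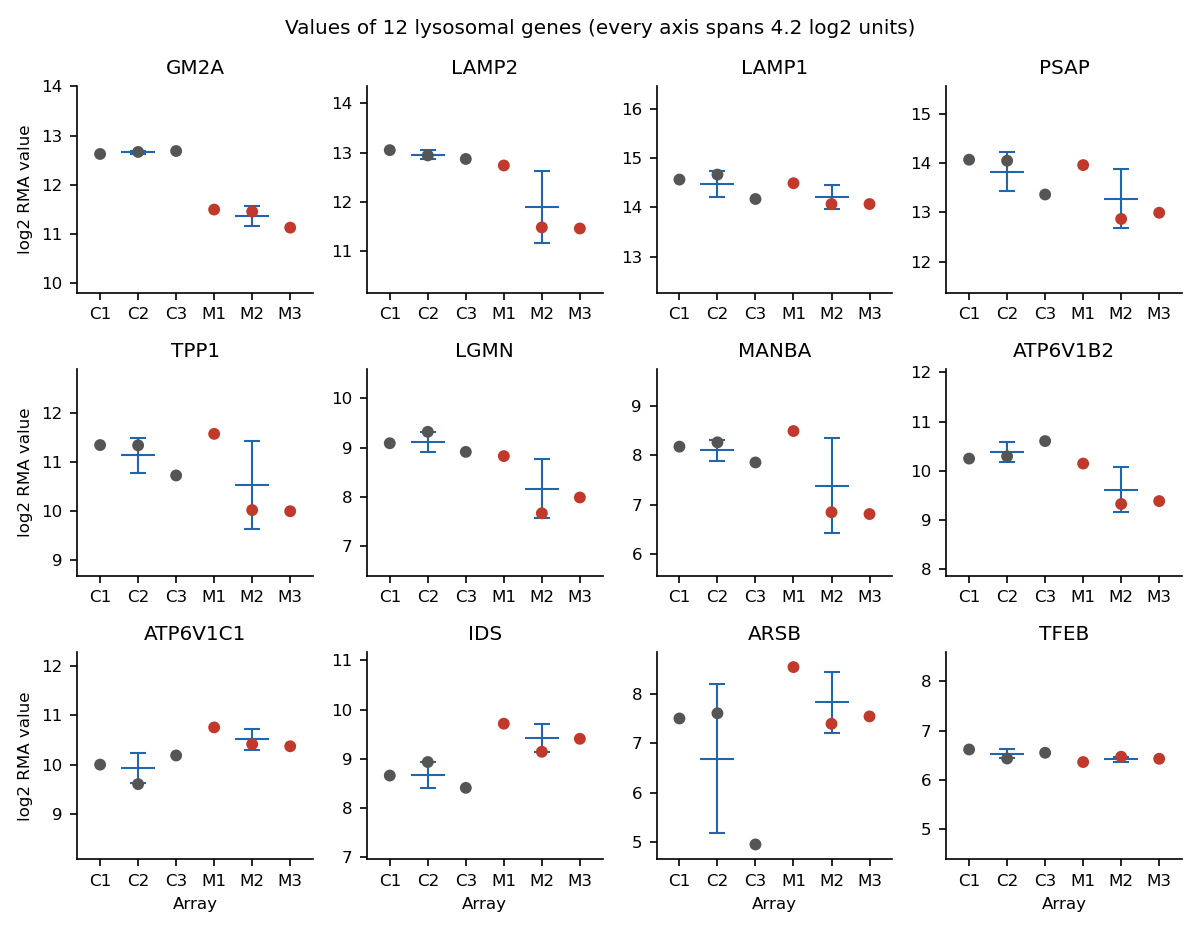
Log2 RMA values of 12 of the genes on the control (grey) and MBD2 (red) arrays, with the mean and SD of each group in blue, on axes of equal span. GM2A separates the groups on all arrays, LAMP2, TPP1, LGMN, MANBA and ATP6V1B2 are lower on M2 and M3 than on M1, which is above the controls in TPP1 and MANBA and just below them in the other 3, and the control mean of ARSB is pulled down by C3.

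GM2A apart, none of the 8 lipid genes passed, though all 8 had a difference below 0. PSAP, the precursor of the saposins that activate sphingolipid hydrolases, was named after its values were seen. It read 14.07, 14.05 and 13.36 on the control arrays and 13.96, 12.87 and 12.99 on the MBD2 arrays, and differed by −0.55 (adjusted p = 0.464). M1 again sat with C1 and C2, and the second PSAP probe set differed by −0.84. LIPA, which frees cholesterol and fatty acids, and NPC2, which hands cholesterol to NPC1, differed by −0.44 and −0.39. Acid ceramidase (ASAH1) and acid sphingomyelinase (SMPD1) differed by −0.24 and −0.09, and both had their highest value on M1 in the probe sets used. The 5 ASAH1 probe sets disagreed, from −0.96 to 0.02. The ASAH1 probe set used has a name ending for shared sequence. In a bright ASAH1 probe set without such an ending the difference was −0.64. There all MBD2 arrays lay below all controls, with M1 at 11.34 and C3 at 11.47. PPT1, which removes palmitate from proteins, differed by −0.21 and was lowest on C3 (9.39, against 10.08 to 11.08 elsewhere). GBA2, which differed by −0.26, is named among these genes but encodes the non-lysosomal glucosylceramidase.

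In the 9 glycosidases the differences ran from −0.72 to 0.25, and none passed. MANBA, the lysosomal beta-mannosidase, read 8.18, 8.27 and 7.86 on the control arrays and 8.49, 6.84 and 6.81 on the MBD2 arrays. It was highest on M1 and over 1 unit below every control array on M2 and M3, so that the difference of −0.72 had an SE of 0.48 (adjusted p = 0.48). MAN2B1, the alpha-mannosidase, followed another order, at 8.28, 8.22 and 8.71 against 7.41, 7.87 and 7.92. All 3 MBD2 arrays lay below the controls, and M1 was the lowest (difference −0.67, SE 0.20, adjusted p = 0.167). FUCA1, which removes fucose, also had no overlap between groups and differed by −0.57 (adjusted p = 0.179).

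NEU1, the lysosomal sialidase, had the largest difference above 0 among the glycosidases, with 8.27, 8.14 and 7.46 on the control arrays and 8.76, 7.70 and 8.16 on the MBD2 arrays. The groups overlapped, and the difference of 0.25 had an SE of 0.34. HEXA, the alpha subunit of the enzyme that GM2A serves, was named after its values were seen. It read 10.00, 10.11 and 8.87 on the control arrays and 10.38, 8.82 and 8.92 on the MBD2 arrays. HEXA was thus highest on M1 and equally low on C3, M2 and M3 (difference −0.29, SE 0.53), unlike GM2A. GLA, the alpha-galactosidase, had a difference of −0.27, with its lowest value on C3 (9.19, against 9.98 to 11.10 elsewhere). GAA, IDUA and NAGLU, which act on glycogen, dermatan and heparan chains, differed by −0.26, −0.16 and −0.08.

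The sulfatases held the 2 largest differences above 0 among the 37. ARSB, which removes sulfate from dermatan and chondroitin chains, read 7.51, 7.61 and 4.95 on the control arrays and 8.55, 7.40 and 7.55 on the MBD2 arrays. Only C3 was far off, and the difference of 1.14 (SE 0.78, adjusted p = 0.493) was 0.27 without it. The ARSB probe set used has a name ending for shared sequence, and its 3 others differed by −0.01 to 0.60. IDS, which removes sulfate from iduronate, read 8.66, 8.93 and 8.41 against 9.71, 9.14 and 9.41, with no overlap between the groups. Its difference of 0.75 (SE 0.20) did not pass (adjusted p = 0.131), and its 10 probe sets disagreed, from −0.26 to 0.99. The IDS probe set used has such a name as well, and IDS has a neighbouring pseudogene copy, so this value is uncertain. GALNS read 8.80, 8.51 and 7.79 against 8.33, 7.86 and 8.02 and differed by −0.30, with C3 the lowest. ARSA and SGSH differed by −0.27 and −0.10, and SGSH was low on C3 as well as on M2 and M3.

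Both peptidases were lower on M2 and M3. LGMN, the asparagine-specific protease legumain, read 9.09, 9.32 and 8.91 on the control arrays and 8.83, 7.67 and 7.99 on the MBD2 arrays. M1 lay just below C3, and the difference of −0.95 (SE 0.31) had an adjusted p of 0.192. TPP1, the tripeptidyl peptidase, named after its values were seen, read 11.34, 11.34 and 10.72 against 11.57, 10.02 and 10.00. It was highest on M1, and its difference was −0.61 in the probe set used (adjusted p = 0.549) and −1.47 in its other bright one.

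TFEB, the factor that binds CLEAR elements, read 6.62, 6.43 and 6.55 on the control arrays and 6.36, 6.47 and 6.43 on the MBD2 arrays. The 6 values lay close together, and the difference was −0.11 (95% interval −0.36 to 0.14). A dimmer TFEB probe set differed by 0.58, so the direction was not settled. The 5 genes with TCACGTGA in the window differed by −0.26 (LAMP1), −0.24 (MCOLN1), −0.26 (GAA), −0.30 (GALNS) and −0.20 (ATP6V0D1), against a median of −0.26 over the 37, and the GM2A window had neither motif.

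The 6 proton pump genes also went more than 1 way. ATP6V1B2, a subunit of the part that binds ATP, read 10.25, 10.30 and 10.61 on the control arrays and 10.15, 9.33 and 9.39 on the MBD2 arrays. There was no overlap, M1 lay close to the controls, and the difference of −0.76 (SE 0.25) had an adjusted p of 0.191. ATP6V1C1, another subunit of the pump, read 10.00, 9.61 and 10.19 against 10.76, 10.42 and 10.37. All MBD2 arrays lay above all control arrays, and the difference of 0.58 (SE 0.19) had an adjusted p of 0.193. ATP6AP1, an accessory protein of the pump, read 10.70, 10.70 and 10.63 against 10.66, 9.51 and 9.63, so that M1 matched the controls (difference −0.75, adjusted p = 0.284). ATP6V0D1, ATP6V1A and ATP6V1H differed by −0.20, −0.09 and −0.28.

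Other genes of the lysosome were counted in further lists. Among 26 other hydrolases and activators of 36 listed, 2 were called lower and 0 higher, against 1.5% and 1.25% of all genes. The median difference was −0.52. At an unadjusted p under 0.05 in limma 9 of the 26 were lower and 0 higher, against 9.59% and 8.69% of all genes. SIAE, a sialic acid esterase, read 9.05, 9.01 and 9.04 against 7.42, 7.26 and 7.22, and fell by 1.74 log2 units (adjusted p = 0.00417). Like GM2A it was low on all 3 MBD2 arrays. SUMF2, a relative of the factor that activates sulfatases, fell by 1.15 (adjusted p = 0.0359). Relative to the control mean the median of the 26 was −0.14 on C3, −0.14 on M1, −0.82 on M2 and −0.87 on M3.

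Of 30 other membrane proteins of 32 listed, none was called lower (1.5% of all genes). LAPTM5, known from blood cells, was the 1 called higher (1.25% of all genes). It read 5.42, 5.46 and 5.33 on the control arrays and 7.45, 8.17 and 8.16 on the MBD2 arrays, a rise of 2.52 (adjusted p = 0.0101). Of 8 leukocyte and macrophage markers, PTPRC, CD163, TYROBP and LYZ were under 5 on every array, and the summed level ran from 10.21 to 10.97 on the control arrays and from 8.47 to 9.18 on the MBD2 arrays. CD14, which monocytes and some epithelia express, carried most of that sum on the control arrays and fell by 3.07 (adjusted p = 0.0416). On M2 and M3 it read 6.70 and 6.57, near CSF1R at 6.28 and 6.42. On M1 the summed level of 8 fibroblast markers was 13.15, against 10.07 to 10.98 elsewhere. DCN (12.57) carried most of that sum, and LUM (9.63) and COL3A1 (8.90) were also highest on M1. COL1A1, COL1A2, PDGFRA, PDGFRB and COL6A3 were each higher on another array, so the list did not move as a whole. The part of these genes in the values of M1 was not tested.

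ATP6V0E2 was the 1 of 17 other V-ATPase genes (of 19 listed) to pass, where 1.5% of all genes were called lower. It fell by 0.84 (adjusted p = 0.0494). None of 30 sorting genes of 31 listed, 24 regulators of 25 listed and 29 autophagy genes passed at an adjusted p under 0.05. At an unadjusted p under 0.05 there were 3 lower and 3 higher, 1 lower and 7 higher, and 0 lower and 6 higher. Of all genes, 9.59% were lower and 8.69% higher at that threshold. TFE3, a relative of TFEB that was named after its values were seen, read 8.68, 8.72 and 9.15 against 9.30, 9.85 and 10.15. No MBD2 array overlapped with a control array, but the difference of 0.92 had an adjusted p of 0.139. Median differences were 0.21 in the regulators and 0.20 in the autophagy genes, on the other side of 0 from the hydrolases. Of 15 cathepsins of 17 listed, CTSD and CTSH were called lower, by 1.79 and 1.68, and none was called higher, against 1.5% and 1.25% of all genes.

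**Figure D5:**
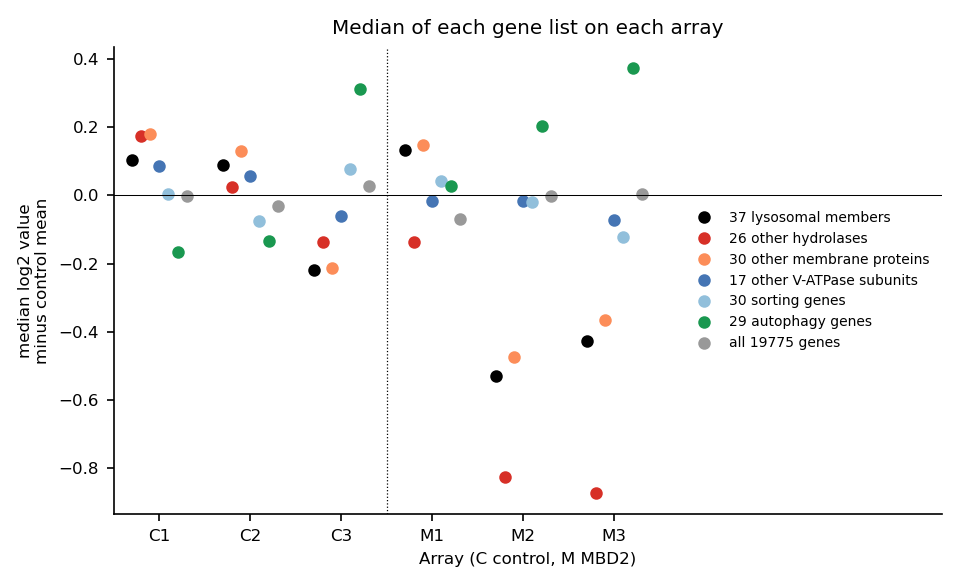
Median over each gene list of the log2 value minus the control mean, on each array (points of 1 array are spread sideways to be seen). The 26 other hydrolases reach −0.82 and −0.87 and the 37 lysosomal genes −0.53 and −0.43 on M2 and M3, while all 19775 genes stay near 0 on every array.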

How the data were processed

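RNA of 6 samples was hybridized to Affymetrix Human Genome U133 Plus 2.0 arrays. The deposited values are on the log2 scale after RMA normalization, which gives the arrays nearly 1 distribution. RMA and affy come from the submitters' processing notes, which give no versions. The 54675 probe sets were named through the platform annotation: 41091 had 1 symbol, 1801 several, 11721 none and 62 were controls. Those with 1 symbol gave 19775 genes, 1 probe set each. Values ran from 2.57 to 14.74. Precision is limited by the 3 arrays of each group.

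Groups were compared with limma 3.58.1 in R 4.3.3 (group as the only term, eBayes, 1.96 prior degrees of freedom), adjusted by Benjamini-Hochberg over all 19775 genes. A gene was called at an adjusted p under 0.05 and at least 1.5-fold. The scripts were tested on simulated data. The members and lists were chosen with earlier results of these data known. Genes named are those called, those whose groups did not overlap at 1.5-fold or more, TFEB, MCOLN1, LAMP1, LAMP2 and MANBA, and the largest differences in each larger role. Alternatives covered the choice of probe set, a filter at a mean of 5, housekeeping centring, quantile normalization, trend and robust eBayes, the t-test, the replicate block, arrays left out or averaged, and other thresholds. Python 3.11.15 and matplotlib 3.10.9 drew the figures.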

Additional observations from a re-analysis of the deposited data

How the results depend on the processing

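The number of lysosomal genes called lower (1) became 0 with the t-test, with the replicate block and with near-identical arrays averaged, and 20 with C3 and M1 left out. It ran from 0 to 9 when single arrays were left out, with 9 without M1, 2 without C3 and 0 without any other array, where 1123, 386 and 17 to 58 of all 19775 genes were called lower. The number called higher (0) became 1 with C3 and M1 left out and 1 by the methods' fold rule, and stayed 0 without any single array. Of 171 other pathway genes, 5 were lower. The number became 1 with unshared probe sets, with the t-test or with the replicate block, and 0 with averaged arrays. It was 57 with C3 and M1 left out, 32 without M1, 8 without C3 and 1 without each other array. Of all 19775 genes, 2110 were called lower with C3 and M1 left out, 1123 without M1 and 386 without C3. The 1 of the 171 called higher became 0 with unshared probe sets, with the t-test or with averaged arrays. It became 2 with housekeeping centring and 4 by the methods' fold rule (3.47% of all genes). With C3 and M1 left out 27 of the 171 were higher, where 3299 of all 19775 genes (16.7%) were. The number was 14 without M1, 4 without C3 and 0 without C1, C2 or M3. Of all genes, 1903 were called higher without M1 and 306 without C3. Non-overlapping lower members (6) became 3 with housekeeping centring, 31 with C3 and M1 left out and 6 to 24 without single arrays (24 without M1, 13 without C3, 11 without C2). Without M1 the 24 were 64.9% of the members, where 24.4% of all genes did not overlap in that direction. For the other alternatives the share of all genes was not counted, and groups of fewer arrays separate more readily in any gene. Non-overlapping higher members (2) became 1 with unshared probe sets and 0 with housekeeping centring.

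Housekeeping centring moved the median difference of all genes from −0.02 to −0.16 and that of the members from −0.26 to −0.40. With averaged arrays the sign turned in SCARB2 (0.0458), CD63 (0.0306), MCOLN1 (0.0718), SMPD1 (0.30), PPT1 (0.0399), GLA (0.0848), HEXA (0.16), NAGLU (0.0425), SGSH (0.41) and ATP6V1A (0.0042). NPC1 turned to −0.13 with housekeeping centring, −0.0007 with quantile normalization and −0.82 with C3 and M1 left out, where NEU1 was −0.28 and ARSB −0.0859. With all probe sets averaged NAGLU was 0.0493, SGSH 0.043 and TFEB 0.23, and with unshared probe sets HEXA was 0.0468, NAGLU 0.17 and TPP1 0.061. Without single arrays the sign turned in SCARB2 (−0.41 to 0.0384), NPC1 (−0.48 to 0.28), MCOLN1 (−0.70 to 0.0658), SMPD1 (−0.59 to 0.25), PPT1 (−0.72 to 0.12), GLA (−0.90 to 0.0545), NEU1 (−0.0286 to 0.50), NAGLU (−0.26 to 0.0444), SGSH (−0.61 to 0.19) and ATP6V1A (−0.30 to 0.0239). The causes were not tested. GM2A kept its direction in all settings, and its adjusted p rose to 0.0801 with the t-test and 0.0777 with the replicate block. Same-numbered arrays did not pair (correlations of deviations 0.17, −0.27 and 0.21).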
